A study of Mus musculus with 6 samples.

Results

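Dmpk and the genes that lie around it on mouse chromosome 7 were followed in B cells of the splenic marginal zone, which borders the white pulp. The 10 genes were Mypop, Irf2bp1, Sympk, Dmwd, Dmpk, Six5, Fbxo46, Qpctl, Snrpd2 and Eml2, of 14864 genes in the deposited table, and all 10 were present and tested. They were chosen by the measured difference between knockout and wild type, which had shown Dmwd, Dmpk and Six5 higher together, and by their place beside this trio, to see how far the difference reaches. For the 10 genes it is therefore given as a description with no test.

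RNA came from flow-sorted cells of the spleens of C57BL/6 mice aged 8 weeks. There were 3 libraries labelled WT and 3 labelled cKO, written CK2[alpha]-cKO, a conditional knockout of the catalytic kinase subunit encoded by Csnk2a1. The sources used here do not give the Cre driver, exons removed, sort gates, sex or litter. Nor do they say that every library is a mouse of its own, so a p-value here covers library-to-library spread that could be technical. Values are normalised reads, that is, read counts that the authors divided by a factor for each library. Each library held 18778776 to 23503756 recovered reads.

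Csnk2a1 did not differ beyond its spread between libraries labelled WT and cKO: it stood at 4069, 3861 and 3939 normalised reads in WT replicates 1, 2 and 3 and at 4124, 3951 and 4060.4 in the cKO replicates (log2 difference 0.03 ± 0.05 SE, limma adjusted p = 0.734, exact two-sided permutation p = 0.3, where 0.1 is the smallest possible). Counts summed over a whole gene cannot show whether an exon was lost, so the labels are taken as given. The B cell markers were high in all libraries, and Cr2, a complement receptor gene of marginal zone cells, had mean normalised reads of 65812 (WT) and 69586 (cKO). None of the 5 B cell markers passed the test, and 2 of 6 on the marginal zone list, Cd1d1 and Cd9, rose (limma adjusted p = 0.0104 and 0.00303). That list also held Fcer2a, better known as a marker of follicular B cells. It stood at 5852, 6788 and 5918 normalised reads in the WT replicates and at 3120, 7644 and 3723 in the cKO replicates. Among the cKO libraries, replicate 2 was highest for Fcer2a and lowest for the rest of the list. Its values were 59691 for Cr2 and 6805 for Cd1d1. Whether the cell make-up of cKO replicate 2 differed was not tested. T cell markers summed to 34.8 to 52.8 normalised reads per WT library and 18.6 to 23.2 per cKO library, with the Cd3 chains not analysed here. Macrophage and monocyte markers summed to 1241 to 2041 and 1068 to 1847, dendritic cell markers to 296 to 344 and 289 to 382, red cell markers to 533 to 8645 and 627 to 4043, platelet markers to 64.6 to 88.5 and 39.8 to 66.0, neutrophil markers to 17.6 to 97.0 and 10.3 to 80.2, natural killer cell markers to 20.9 to 36.2 and 27.6 to 30.3, and stromal and endothelial markers to 4396 to 5252 and 4301 to 5365, most of it Pecam1. Of these markers of other cell types, Zbtb46 alone passed (higher, adjusted p = 0.0252). In bulk RNA, more cells that express a gene and more RNA per cell cannot be told apart.

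DMPK is a serine/threonine kinase, best known from muscle, whose human gene carries the expanded CTG repeat of myotonic dystrophy. In mouse as in human its gene is tightly packed between DMWD, a WD-repeat protein gene on the upstream side, and SIX5, a homeobox transcription factor gene on the downstream side. In the GENCODE M21 annotation all 3 lie on the plus strand, one after another, with no other protein-coding gene between them. Going away from this trio, the next gene analysed upstream was Sympk, which encodes symplekin, a scaffold of the machinery that cleaves and polyadenylates mRNA. The next one downstream was Fbxo46, which encodes an F-box protein, a substrate receptor type of ubiquitin ligase. Rsph6a, between Sympk and Dmwd, and Gm4969, between Six5 and Fbxo46, were not analysed here.

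The stretches just upstream of the trio and of the genes on either side of it are shown because these 3 neighbours were higher together while the nearest genes analysed on either side differed little. They come from RefSeq's GRCm38.p6 table, plus strand, and end at the base before the annotated start: Sympk at chr7:19024127-19024376, Dmwd at chr7:19075950-19076199, Dmpk at chr7:19083608-19083848, Six5 at chr7:19094294-19094543 and Fbxo46 at chr7:19119609-19119858. Capitals mark CpG dinucleotides, which cluster in the promoters of broadly expressed genes.
Sympk: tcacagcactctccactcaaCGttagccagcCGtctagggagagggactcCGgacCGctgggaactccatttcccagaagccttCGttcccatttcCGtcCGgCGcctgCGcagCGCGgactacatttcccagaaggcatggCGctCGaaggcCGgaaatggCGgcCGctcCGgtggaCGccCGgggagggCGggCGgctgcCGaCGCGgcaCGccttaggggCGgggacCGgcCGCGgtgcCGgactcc
Dmwd: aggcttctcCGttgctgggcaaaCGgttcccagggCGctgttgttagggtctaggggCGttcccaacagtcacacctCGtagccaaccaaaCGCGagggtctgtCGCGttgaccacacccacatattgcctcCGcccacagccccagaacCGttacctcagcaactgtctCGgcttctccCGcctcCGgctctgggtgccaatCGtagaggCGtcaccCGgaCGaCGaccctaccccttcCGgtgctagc
Dmpk: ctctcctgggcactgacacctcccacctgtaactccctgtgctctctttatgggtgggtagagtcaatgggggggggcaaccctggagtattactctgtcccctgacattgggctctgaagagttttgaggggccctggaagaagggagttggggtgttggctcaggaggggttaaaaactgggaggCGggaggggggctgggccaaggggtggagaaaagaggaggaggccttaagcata
Six5: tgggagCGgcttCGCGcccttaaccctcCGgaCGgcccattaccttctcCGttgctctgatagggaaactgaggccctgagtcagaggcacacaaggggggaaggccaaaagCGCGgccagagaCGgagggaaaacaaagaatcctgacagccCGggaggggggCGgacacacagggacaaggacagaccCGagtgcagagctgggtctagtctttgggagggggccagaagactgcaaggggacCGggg
Fbxo46: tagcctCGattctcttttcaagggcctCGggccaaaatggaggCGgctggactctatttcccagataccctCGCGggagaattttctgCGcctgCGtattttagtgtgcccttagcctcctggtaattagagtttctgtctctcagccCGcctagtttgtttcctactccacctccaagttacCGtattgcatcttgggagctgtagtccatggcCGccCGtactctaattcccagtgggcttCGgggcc

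The Dmpk stretch differed from the others in having a single CpG, against 30 for Sympk, 20 for Dmwd, 13 for Six5 and 12 for Fbxo46. In the table's full window of 300 bases, from 250 before the start to 50 after it, Dmpk had 2 CpGs, and 14.1% of the 32851 mouse promoters in the table had fewer. Dmwd had 25 and Six5 17, which 81.6% and 68.6% of promoters did not reach, and the median was 7. Promoters were found for 9 of the 10 genes, with a pair of starts for Eml2. The GC box GGGCGG, searched on both strands, occurred 2 times in the Dmwd window, 3 times in that of Six5, 3 times in that of Sympk, once in that of Fbxo46 and not in that of Dmpk, and 35.7% of all promoters held it. The E-box CANNTG occurred once each for Dmwd and Dmpk and not for Six5 (72.3% of all promoters). The AP-1 motif TGANTCA occurred once for Six5 and for none of the other genes searched (7.81%). The MEF3 motif TCAGGTT occurred in 1 of the Eml2 windows and in none of the trio (4.07%). The STAT motif TTCNNNGAA occurred for Sympk and Irf2bp1 (8.30%), where it can share bases with TTTCCCAG, and TATAAA for none of the 9 genes searched (13.6%). All motifs were picked after the files were seen. TTTCCCAG, chosen after these sequences were read, occurred 2 times for Sympk and once each for Irf2bp1 and Fbxo46 (3.20%). It was absent for Dmwd, Dmpk and Six5, and also for Mypop, Snrpd2 and the Eml2 windows. Since most promoters lack it, nothing is read from its absence in the trio. A match to these letters is a description and not a binding site.

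Dmwd, Dmpk and Six5 were each about 5-fold higher in cKO, and the nearest genes analysed on either side were not. Dmpk (ENSMUSG00000030409) stood at 39.5, 50.6 and 44.0 normalised reads in WT replicates 1, 2 and 3 and at 175, 300.4 and 177 in cKO replicates 1, 2 and 3. The groups did not overlap: the lowest cKO library was more than 3 times the highest WT library, and cKO replicate 2 lay well above the other cKO libraries. The means were 44.7 ± 5.56 and 218 ± 71.8 (SD, n = 3 each), a ratio of 4.87, and on the log2(value + 1) scale cKO exceeded WT by 2.22 ± 0.22 (SE).

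Dmwd (ENSMUSG00000030410), whose product binds deubiquitinases of the USP12 and USP46 type in human cells, followed the same course. It stood at 70.3, 88.5 and 58.7 normalised reads in the WT replicates and at 289.7, 514 and 293 in the cKO replicates. Again the groups did not overlap, and cKO replicate 2 was the highest library. The means were 72.5 ± 15.04 and 365 ± 128 (SD, n = 3 each), with a log2 difference of 2.28 ± 0.23 (SE).

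Six5 (ENSMUSG00000040841) was far less abundant. It stood at 2.20, 6.32 and 6.85 normalised reads in the WT replicates, from 2, 6 and 7 recovered reads, and at 35.7, 18.0 and 27.9 in the cKO replicates, from 40, 19 and 27 reads. The groups did not overlap, but cKO replicate 2, the highest library for Dmwd and Dmpk, was the lowest cKO library for Six5. The exact 95% Poisson interval, in recovered reads, was 2.81 to 14.4 for WT replicate 3 and 11.4 to 29.7 for cKO replicate 2, so these intervals overlapped. The means were 5.12 ± 2.55 and 27.2 ± 8.85 (SD, n = 3 each), and the log2 difference was 2.26 ± 0.45 (SE). Dividing cKO by WT in the fit gave 4.78, with a wide 95% interval of 2.42 to 9.46, against 3.32 to 6.51 for Dmpk. The WT mean of Six5 lay below 10, the minimum mean over the 6 libraries, so Six5 was tested only through its cKO reads. The 3 genes ranked 17 (Dmwd), 18 (Six5) and 20 (Dmpk) among the log2 differences of all 14855 genes tested, where 24 genes, 0.162%, were higher in cKO by at least 2.

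**Figure D1:**
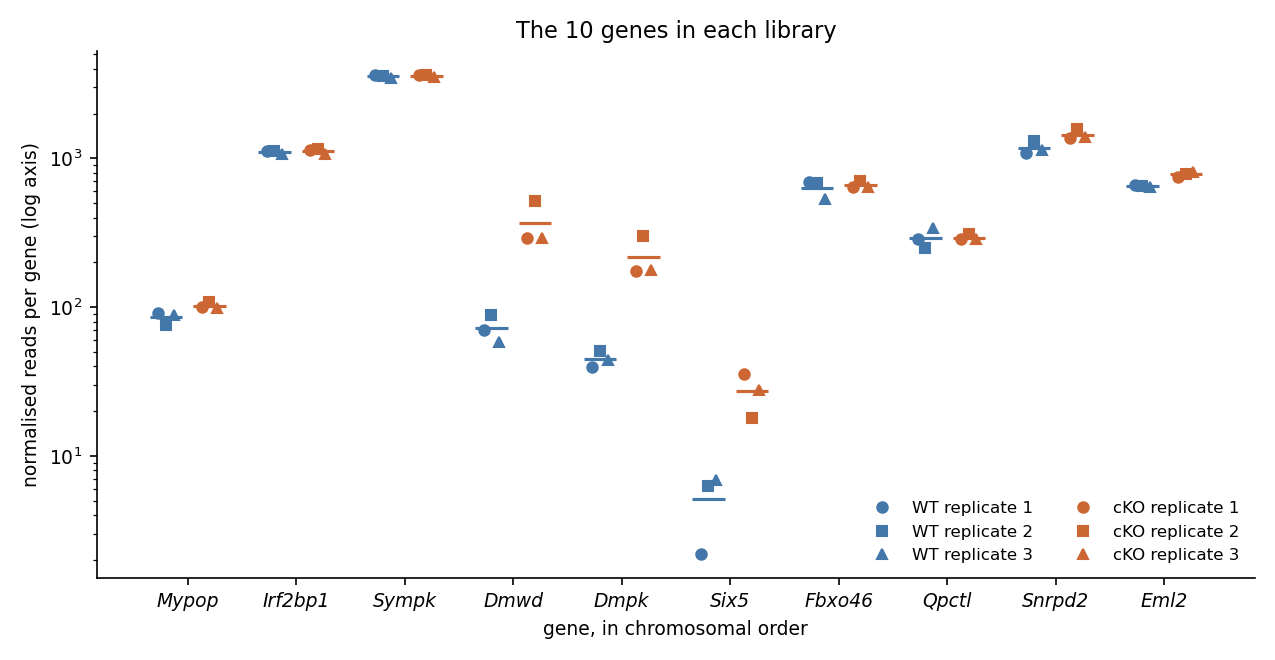
Normalised reads (log axis) of the 10 genes in chromosomal order, with 1 symbol per library, WT in blue and cKO in orange, and a bar at each group mean of 3 libraries. Dmwd, Dmpk and Six5 separate by about 5-fold, with Dmpk between 39.5 and 50.6 in WT and between 175 and 300.4 in cKO, while Sympk, Irf2bp1, Fbxo46 and Qpctl overlap.

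Dmwd and Dmpk kept nearly the same proportion to each other in most libraries. The ratio of Dmwd to Dmpk in normalised reads was 1.78, 1.75 and 1.33 in the WT replicates and 1.66, 1.71 and 1.65 in the cKO replicates, so the ratios of the groups overlapped although both genes were about 5-fold apart. The ratio of Dmpk to Six5 was more spread, at 18.0, 8.00 and 6.43 in WT and 4.90, 16.7 and 6.37 in cKO, and it rests on the few Six5 reads. Per kilobase of annotated exon, which allows levels of different genes to be compared, the mean normalised reads in WT were 28.4 for Dmwd, 10.3 for Dmpk and 1.70 for Six5. In cKO they were 143, 50.2 and 9.04, so the order of the trio was the same in both groups. Dmpk per kilobase remained below Sympk, at 339 in WT and 342 in cKO, while Dmwd in cKO came to the level of Fbxo46, at 128 in WT and 135 in cKO. As a share of the Sympk value in the same library, Dmpk was 1.08% to 1.41% in WT and 4.80% to 8.31% in cKO.

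**Figure D2:**
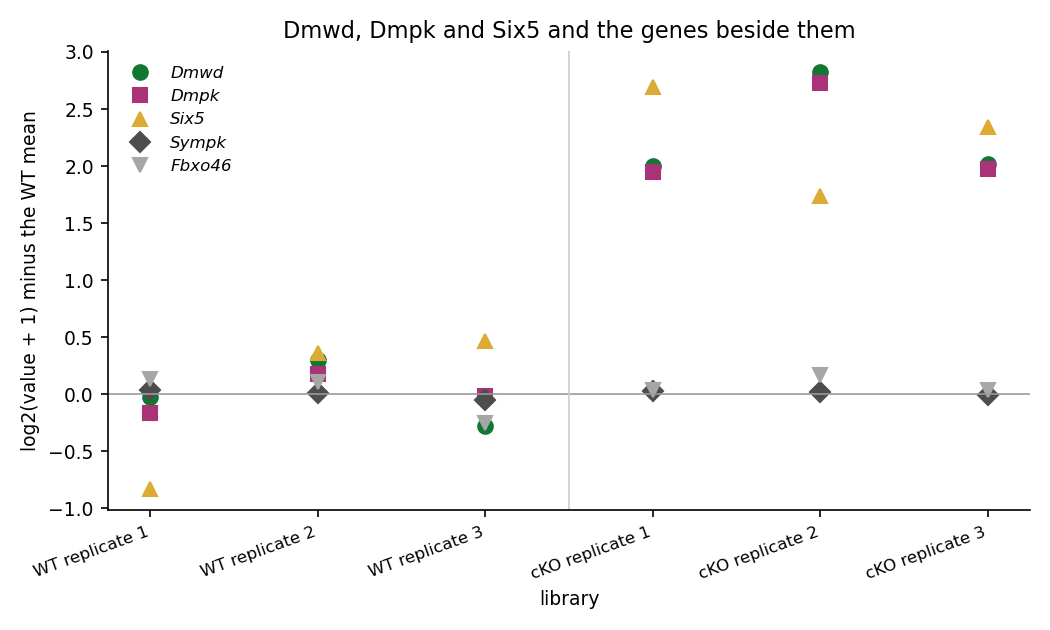
The log2(value + 1) of Dmwd, Dmpk, Six5 and the nearest gene analysed on either side, Sympk and Fbxo46, in each library, minus the gene's WT mean. Dmwd and Dmpk lie nearly on top of each other in the cKO libraries and are highest in cKO replicate 2, where Six5 is lowest of the 3, and Sympk and Fbxo46 stay near 0.

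On the upstream side the first gene analysed did not share the separation of the groups. Sympk (ENSMUSG00000023118) stood at 3655.5, 3595 and 3453 normalised reads in the WT replicates and at 3642, 3616 and 3547 in the cKO replicates, and the groups overlapped throughout. Dividing cKO by WT gave 1.01 (95% interval of the fit 0.935 to 1.09). Irf2bp1, a corepressor that binds IRF2, was at 1122, 1114 and 1066 in WT and 1134, 1155 and 1068 in cKO, which overlapped too (ratio 1.02, interval 0.925 to 1.12). Mypop, a MYB-related repressor and the last of the upstream genes, was at 91.1, 75.9 and 89.0 in WT and 99.8, 108 and 98.0 in cKO. Its groups did not overlap, and the 95% interval of its ratio was 0.940 to 1.52. Mypopos and Gm10676 overlap Mypop on the other strand and have values of their own. The strand setting of the counts is not given in the sources used here. Reads in the shared stretches may therefore be counted for the wrong gene. Gm10676, which is not one of the 10 genes, rose from 88.1 ± 8.23 to 137 ± 17.1 normalised reads (log2 difference 0.63 ± 0.16, limma adjusted p = 0.0321). Mypopos, not one of them either, was at 280 ± 45.5 in WT and 329 ± 25.9 in cKO, with overlapping groups (0.24 ± 0.13, adjusted p = 0.244). The part of either in the Mypop values was not tested.

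On the downstream side, too, the first gene analysed had overlapping groups. Fbxo46 (ENSMUSG00000050428) had WT values of 692, 681 and 530.2 normalised reads and cKO values of 646, 709 and 647, and the ratio was 1.06 (95% interval 0.904 to 1.24). Qpctl, a Golgi glutaminyl cyclase known for modifying the ligand CD47, was at 287, 252 and 340.4 in WT and 286, 309.9 and 286 in cKO (ratio 1.01, interval 0.841 to 1.21). Fbxo46 and Qpctl overlap at their ends on opposite strands, so reads there cannot be assigned to either. The directions of Sympk, Irf2bp1, Fbxo46 and Qpctl turned below 0 in 1 or 2 of the 16 alternative settings each, with values down to -0.0094, -0.0001, -0.0416 and -0.0883.

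Farther downstream came a small difference in a pair of genes, similar in size to that of Mypop on the upstream side. Snrpd2, which encodes a Sm core protein of the spliceosome, was at 1087, 1306 and 1138 normalised reads in WT and 1365, 1568 and 1394 in cKO. The groups did not overlap, although WT replicate 2 came close, and the ratio was 1.23 (95% interval 1.08 to 1.39). Eml2, which encodes a microtubule-binding protein, was at 659.9, 648 and 648 in WT and 747, 785 and 814 in cKO. Its groups did not overlap and the interval of the ratio was 1.08 to 1.33. The excess over the WT mean was 22.6% for Snrpd2, 19.9% for Eml2 and 19.5% for Mypop, against 387% for Dmpk.

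In the fit across all 14855 genes, 5 of the 10 genes were past the threshold of an adjusted p of 0.05 as higher in cKO (Dmwd, Dmpk, Six5, Snrpd2 and Eml2) and 0 as lower, where 5.08% of all genes tested were called higher and 4.97% lower. For 6 of the 10 the cKO values lay wholly above the WT values, and for 0 wholly below, where 15.9% and 15.6% of all genes did so (31.6% in either direction). Since the same contrast was used to choose the genes, nothing is read from these counts. The median log2 difference was 0.26 over the 10 genes and -0.00086 over all genes tested. The count past the threshold was 3 without WT replicate 1, without WT replicate 3 or without cKO replicate 2, and 2 without cKO replicate 3. Dmwd and Dmpk were past it in all 16 alternative settings and Six5 in 14 of the 15 that gave it a value. Snrpd2 was past it in 10 of 16, not when scaled without immunoglobulin genes, and Eml2 in 11 of 16.

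To see whether the surroundings differed farther out, the 25 protein-coding genes on each side of Dmpk were taken by position alone. Of the 41 that were not among the 10 genes, 15 were in the table and tested. The other genes, 11 of them pregnancy-specific glycoprotein genes, were not analysed here. Among the 15, only Pglyrp1 and Ccdc61 lay upstream, so the upstream side was hardly covered. Of the 15, 1 rose and 1 fell, 13.3% against 10.1% of all genes called in either direction, and their median log2 difference was 0.04. Vasp, a regulator of actin filament growth, rose from 8367 ± 148 to 9866 ± 88.2 normalised reads (log2 difference 0.24 ± 0.05, limma adjusted p = 0.0152). Its antisense neighbour 1700058P15Rik overlaps it. Fosb, an immediate early gene and AP-1 subunit, fell from 12053 ± 2413 to 5524 ± 1468 (-1.15 ± 0.18, adjusted p = 0.00481). Thus 1 gene rose and 1 fell on the downstream side, where nearly all tested flanking genes lay, and neither is next to the trio.

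The nearest gene analysed beyond Mypop was Ccdc61, which encodes a centrosomal protein, at 524 ± 18.4 in WT and 437 ± 66.8 in cKO (limma adjusted p = 0.14). The nearest one beyond Eml2 was Gpr4, a proton-sensing receptor gene, at 7.74 ± 5.47 and 16.8 ± 1.72 (log2 difference 1.22 ± 0.48, adjusted p = 0.13). Gpr4 had only 6, 13 and 3 recovered reads in the WT replicates and 21, 17 and 15 in the cKO replicates. With a WT mean below 10, it was tested only through its cKO reads, like Six5. Ccdc61 passed only without cKO replicate 2 (adjusted p = 0.0402, range 0.0402 to 0.357 over the alternatives) and Gpr4 only without WT replicate 2 (0.0488, range 0.0488 to 0.327). Vasp lost its call without WT replicate 3 (0.065) and without cKO replicate 3 (0.0586), in a range of 0.00106 to 0.065, and Fosb lost its call under robust moderation (0.0826, range 0.000671 to 0.0826).

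**Figure D3:**
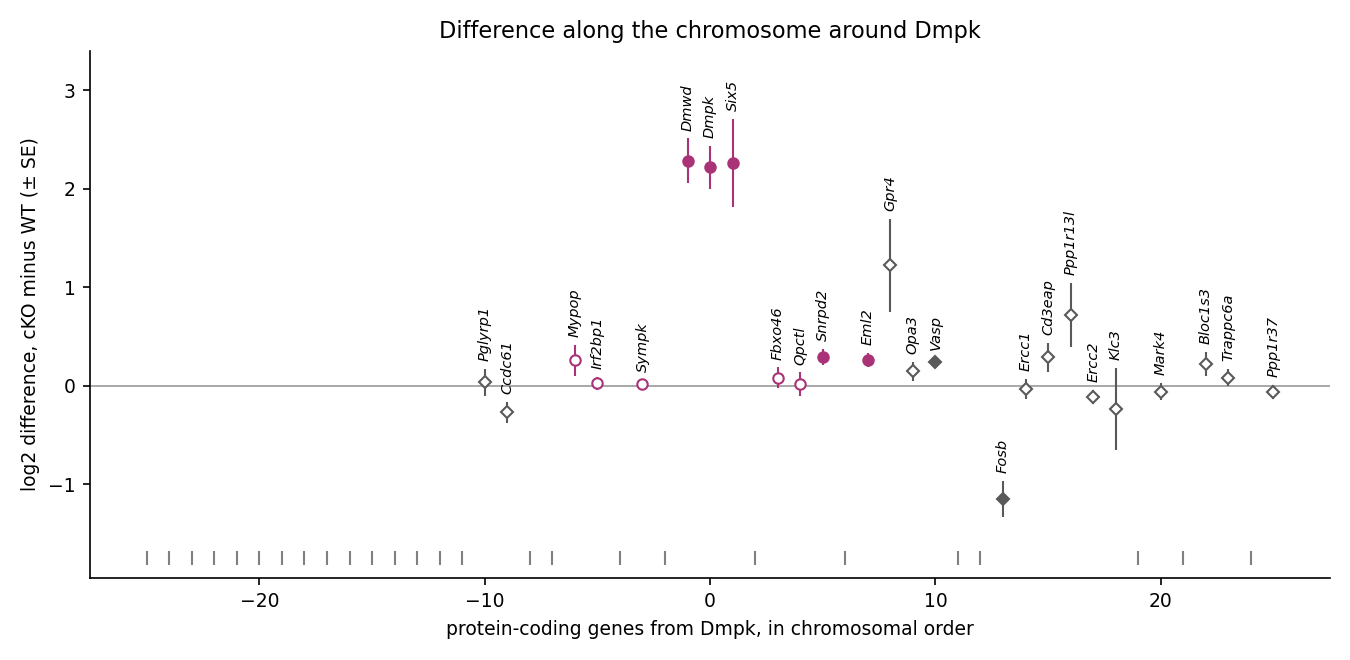
Log2 difference (cKO minus WT, ± SE) of the genes around Dmpk against their place among the protein-coding genes, with Dmpk at 0. Purple circles are the 10 genes and grey diamonds the flanking genes, filled where past the adjusted p threshold of 0.05, and ticks at the bottom mark genes not analysed here. The trio stands at 2.22 to 2.28, and Sympk and Fbxo46 on either side lie at 0.01 and 0.08.

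Groups of neighbouring genes called together also occurred elsewhere. Over the genome there were 11701 stretches of 3 consecutive protein-coding genes tested, overlapping stretches included, and in 19 of them (0.162%) all 3 genes were called higher and in 7 all 3 lower. Several were families of related genes, such as the interferon-induced Oas genes on chromosome 5, the Ifit genes on chromosome 19 and the Gbp genes on chromosome 3. All 3 genes were at a log2 difference of at least 1 in 2 stretches, namely Dmwd, Dmpk and Six5, and the chromosome 14 genes Gm3468, Gm3636 and Gm3739, whose smallest value was 1.06 which are predicted genes of a multigene family, so that their reads may be split among copies. In 1 stretch, that of Dmwd, Dmpk and Six5, all 3 were at 2 or more. The trio was chosen for this difference, and Six5 was tested only through its cKO reads, so its place is a description. The total of 26 called stretches was 3 to 35 when 1 library was left out, namely 5, 14 and 3 when WT replicate 1, 2 or 3 was dropped and 6, 35 and 3 when cKO replicate 1, 2 or 3 was.

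**Figure D4:**
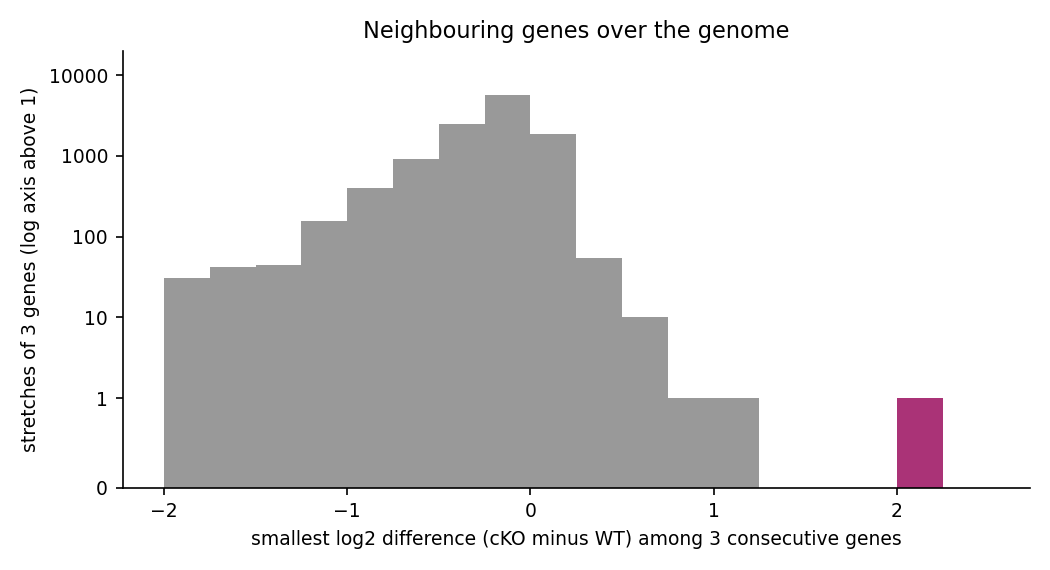
Number of stretches of 3 consecutive tested protein-coding genes (log axis above 1) by the smallest log2 difference, cKO minus WT, among the 3 genes, in steps of 0.25, with values below -2 pooled in the lowest step. The single purple bar at 2 is Dmwd, Dmpk and Six5.

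The genes most like Dmpk in pattern were ranked by the root mean square difference between profiles of log2(value + 1), each centred over the 6 libraries, among the 10368 other genes with a mean of at least 100 normalised reads in the higher group. Dmwd was the closest, at 0.138 log2 units, and it was also the closest of all 14854 other genes tested. The next were Stc1, a secreted glycoprotein hormone gene on chromosome 14 (0.409), Rundc3a on chromosome 11 (0.440), Ptgr1, a prostaglandin reductase gene on chromosome 4 (0.447), and Atp11a, a phospholipid flippase gene on chromosome 8 (0.464). Stc1 stood at 35.1, 40.0 and 51.8 normalised reads in the WT replicates and at 180.1, 147 and 183 in the cKO replicates, so that cKO replicate 2, highest for Dmpk, was its lowest cKO library. Among all 14854 other genes tested, with no minimum on the mean, Six5 ranked 75, at 0.627, and Sympk 6434. These values describe 6 libraries in which the group difference dominates each profile.

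Relatives and known partners of the 10 genes, and muscle genes, were counted beside the share called over all genes. Of the 69 genes tested on these 10 lists, 2 rose and 2 fell, where 10.1% of all genes were called, and their median log2 difference was 0.01. At that share a short list would hold few calls or none, so nothing is read from a list without calls. Leaving out WT replicate 1 brought the 4 calls to 1, and leaving out WT replicate 3, cKO replicate 1 or cKO replicate 3 brought them to 2.

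Of the 10 kinases related to DMPK, among them Rock1, Rock2 and Cdc42bpb, 0 rose and 0 fell, with a median of -0.03. Rock1 averaged 4234 ± 127 in WT and 4556 ± 7.16 in cKO (limma adjusted p = 0.199). Of 6 muscleblind and CELF genes tested, RNA-binding proteins studied in myotonic dystrophy, 0 were called either way (median -0.05), and Mbnl1 was at 14810 ± 259.6 and 15127 ± 801. Of 11 relatives and cofactors of Six5 (other homeobox genes of its family and the Eya and Dach genes), only Eya1 and Eya3 were tested. Eya1, a phosphatase and coactivator that works with homeobox proteins of the Six5 family, was at 61.4 ± 9.50 and 32.0 ± 15.8 (log2 difference -1.01 ± 0.31, adjusted p = 0.0631). Of 5 partners of DMWD and related deubiquitinase genes, 0 were called (median -0.11).

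Of 16 cleavage and polyadenylation factors that work with symplekin, 1 rose and 1 fell, with a median of 0.0065. Cpsf1, the largest subunit of the cleavage factor CPSF, fell from 3191 ± 119 to 2655 ± 127 normalised reads (-0.27 ± 0.06, limma adjusted p = 0.0188), and Papola, the poly(A) polymerase gene, rose from 4706 ± 108 to 5352 ± 149.7 (0.19 ± 0.05, adjusted p = 0.0431). Cpsf1 lost its call when WT replicate 1 (0.0689), WT replicate 2 (0.0501) or cKO replicate 3 (0.0808) was dropped, in a range of 0.0041 to 0.0808 over the alternatives. Papola lost its call whenever a library was left out, at 0.0614 to 0.152, and when scaled without immunoglobulin genes (0.0526).

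Of 6 Sm core genes besides Snrpd2, 0 were called, with a median of 0.15. All 6 log2 differences were above 0, from 0.085 for Snrpg to 0.229 for Snrpf, against 0.295 for Snrpd2. For Snrpd1 and Snrpe the cKO values lay wholly above the WT values, as they did for 15.9% of all genes tested. Nothing is read from this. Of 4 other EML genes tested, Eml4 fell from 4783 ± 167 to 4120.4 ± 256 (-0.22 ± 0.06, limma adjusted p = 0.0439) and 0 rose (median -0.10). Eml4 lost its call with edgeR (0.0526) and without any 1 library except cKO replicate 2 (0.0906 to 0.128), in a range of 0.0251 to 0.128. Of 3 relatives of Qpctl and Irf2bp1 and of 3 SCF ubiquitin ligase core genes, 0 were called, with medians of -0.11 and 0.10.

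Muscle genes were examined because Dmpk is best known from muscle. Of 31 skeletal and smooth muscle genes, 14 were tested, 1 rose and 0 fell, with a median log2 difference of 0.16. The one that rose was Flnc, a muscle filamin gene, from 5.51 ± 3.01 to 135 ± 52.8 normalised reads (4.46 ± 0.42, limma adjusted p = 0.000321), and it was called in all 16 alternative settings. Flnc had 6, 2 and 8 recovered reads in the WT replicates and 220, 116 and 97 in the cKO replicates. It reached the lowest total of any gene, 61 reads, only with its cKO reads. A muscle gene as low in both groups would not be among those tested, so this rise is a description. The defining muscle genes Ckm, Des, Myod1 and Myog were not analysed here, and Acta1 stood at 12.7 in WT and 16.9 in cKO. The list summed to 9506 to 10254 normalised reads per WT library and 8657 to 10446 per cKO library, most of it Mef2c (8739 and 8178), which B cells also express. The part that muscle cells might have in the Dmpk difference was not tested.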

How the data were processed

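RNA-seq of sorted marginal zone B cells was used, with 3 WT and 3 cKO libraries. The submitters' processing notes list STAR 2.5.2b, Trimmomatic 0.36, bcl2fastq 2.17 and mm9. How reads were assigned to genes and strands, and how values were normalised, is not given in the sources used here, so gene order comes from GENCODE M21 and no coordinates are given for the counted genes. The deposited values are a signal, which the authors scaled from read counts by 1 factor per library. This shows in the values: 100.0% were whole multiples of 1 read within 0.02 of a read. Each gene had at least 61 recovered reads. GENCODE M21 named 14808 of the 14864 identifiers.

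Limma 3.58.1 (R 4.3.3; trend, two-sided, genotype only) was run on log2(value + 1) for the 14855 genes with a mean of at least 10, with Benjamini-Hochberg adjusted p values and a threshold of 0.05. The test ran on simulated data first. On recovered reads, edgeR 4.0.16 called 1473 genes and DESeq2 1.42.0 called 1630, against 1494 with limma. Intervals of reads cover counting error only. The genes named are the 10 genes, Csnk2a1, called flanking genes and the nearest on either side, up to 4 called genes per list of relatives, the nearest patterns, and marker genes that check the cells. Gm10676, Mypopos, Pglyrp1 and a few genes that missed the threshold (Rock1, Mbnl1, Eya1 and Acta1) were chosen after their values were seen. So were the stretches elsewhere in the genome. The 10 genes and the lists were chosen with earlier results of these data known.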

Additional observations from a re-analysis of the deposited data

How the results depend on the processing

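Dmwd, Dmpk, Six5, Mypop, Snrpd2 and Eml2 kept their direction in all alternatives that gave a value (pseudocounts, filters, scalings, tools, robust moderation, the replicate block and leaving out 1 library). The log2 difference ranged from 2.01 to 2.44 for Dmwd, from 1.96 to 2.35 for Dmpk and from 1.66 (pseudocount 5) to 2.52 for Six5, which the filter at a mean of 50 removed. Leaving out 1 library gave 497 to 1730 calls over all genes (1494 in all 6 libraries), 2 to 4 among the 10 genes, 1 to 3 among the flanking genes, 1 to 5 among relatives, partners and muscle genes and 3 to 35 stretches of neighbours, and a log2 difference of 0.0145 to 0.0524 for Csnk2a1. Robust moderation called 1 flanking gene in place of 2. The causes were not tested. The replicate block called 1551 genes and 5 of the 10. Same-numbered libraries deviated from their group means with correlations of -0.0745, -0.02 and 0.147, and not every library correlated best with its own number. The highest correlation, 0.196, was between WT replicate 2 and cKO replicate 1. With 3 libraries per group these values show no pairing by number but cannot exclude one. The counts among relatives and stretches under these alternatives were added after the data were seen. Depth limits Six5 most, at 2 to 7 reads per WT library.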
